A study of Mus musculus with 5 samples.

Results

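Distal convoluted tubule (DCT) cells were taken from a single-cell RNA sequencing matrix of mouse kidney as the barcodes with at least 1000 unique molecular identifiers (UMIs), at least 200 genes and at most 25% of UMIs on mitochondrial genes, in which Slc12a3 had at least 2 UMIs, Slc12a1, Aqp2 and Lrp2 each had at most 1, and Ptprc had 0. This rule found 570 DCT cells among 53809 barcodes that passed the 3 filters, or 1.06% (Clopper-Pearson 95% interval 0.975 to 1.15%). The study followed the left kidney of male C57BL/6J mice of 6 to 8 weeks after unilateral ischemia-reperfusion (UIR), in which the left renal pedicle was clamped, on day 1, 3, 14 and 28, beside a sham operation without the clamp, with the kidneys of 3 mice in each sample. The merged matrix held 5 libraries, told apart by the number at the end of each barcode. Nothing in the labels says which library came from which group, so the libraries are named 1 to 5, all cells count as 1 sample, no group means were formed and no test between conditions was possible. All intervals cover counting error only, and none of them measures the spread between mice.

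The DCT is the short stretch of nephron between the thick ascending limb of Henle's loop (TAL) and the connecting tubule and collecting duct. It takes up sodium and chloride through the thiazide-sensitive cotransporter NCC, the product of Slc12a3, and WNK kinases switch this cotransporter on through the kinase SPAK. Its early portion is known for parvalbumin and for magnesium uptake through TRPM6, and its late portion for calcium uptake with the help of calbindin, as well as for aldosterone-sensitive sodium uptake.

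The 5 libraries held 82426945 to 139382799 UMIs in all. DCT cells had a median of 4970 UMIs and 1822.5 genes, against 6027 UMIs in TAL cells, 7657 in collecting duct principal cells and 6445 in proximal tubule cells, which were chosen by matching rules (Slc12a1, Aqp2 or Lrp2 at least 2 and the other segment genes at most 1). The rule kept 522 TAL cells and 149 principal cells. The submitters' labels give the cell type as goblet cell, but the sum of 8 goblet genes was 5.29 CPM (UMIs for each 1000000 UMIs of the DCT cells), and Muc2, Clca1, Zg16, Agr2, Tff3 and Spdef had no UMI in them. No DCT cell shared its barcode sequence with another DCT cell, and 5 shared it with a filtered barcode of another library.

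The number of DCT cells differed widely between libraries. Library 1 held 58, library 2 held 52, library 3 held 283, library 4 held 15 and library 5 held 162. As a share of filtered barcodes this was 0.690% (0.524 to 0.891) in library 1, 0.531% (0.396 to 0.695) in library 2, 1.505% (1.34 to 1.69) in library 3, 0.187% (0.105 to 0.308) in library 4 and 1.85% (1.58 to 2.15) in library 5. The intervals of libraries 3 and 5 lay above those of the other 3 libraries, and that of library 4 lay below all others. Set against TAL cells of the same library, there were 0.513 DCT cells for each TAL cell in library 1, 0.788 in library 2, 1.13 in library 3, 0.882 in library 4 and 2.16 in library 5. Library 4 gave too few DCT cells for a comparison between libraries, and its values below are a description of 15 cells.

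The mitochondrial limit removed many barcodes of this segment. Of 1177 barcodes that met the rule in every other respect, 607 had over 25% of UMIs on mitochondrial genes, or 51.6% (48.7 to 54.5). This share was 36.0% for TAL, 17.5% for proximal tubule and 13.9% for principal cells. In DCT cells it was 60.3% in library 1, 50.9% in library 2, 38.5% in library 3, 25% in library 4 and 63.6% in library 5. In library 3 the share was 38.5% (34.0 to 43.1) in DCT cells and 8.06% (5.12 to 11.9) in TAL cells, so the intervals were far apart, whereas in library 5 both classes stood at 63.6%. The share of DCT cells given above is therefore that of cells below the limit, and at a limit of 10% only 189 DCT cells would remain.

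**Figure D1:**
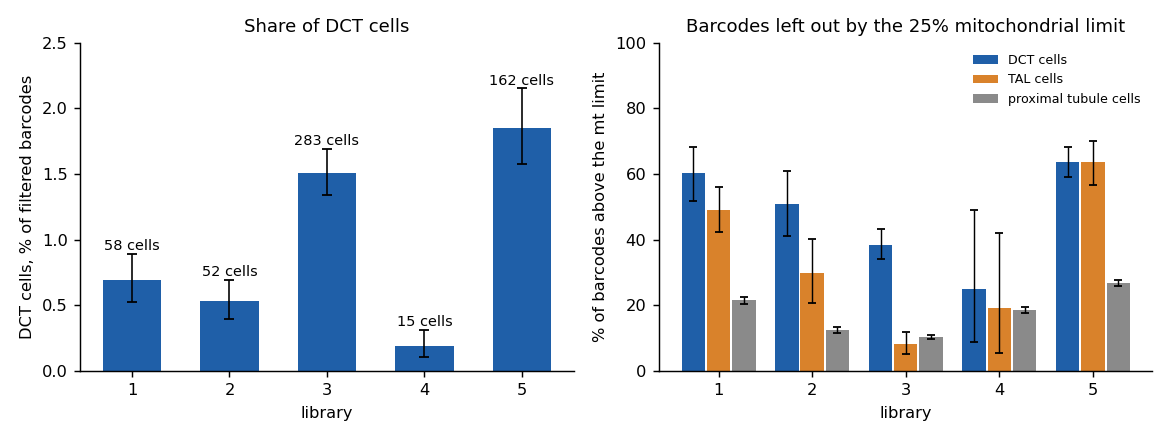
Left, DCT cells as a percentage of filtered barcodes in each library, with the number of cells above each bar. Right, the percentage of barcodes left out by the mitochondrial limit for DCT, TAL and proximal tubule cells of each library. Whiskers are Clopper-Pearson 95% intervals. The share of DCT cells was highest in library 5 (1.85%) and lowest in library 4 (0.187%), and in library 3 the limit left out 38.5% of DCT but 8.06% of TAL barcodes.

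The rule chose the cells on Slc12a3 (chr8:94329201-94366214, plus strand, mm10), so its level is a description. DCT cells had 4108 CPM of Slc12a3 in all, with 4682 CPM in library 1, 3579 in library 2, 2821 in library 3, 2161 in library 4 and 7284 in library 5. The median cell held 22.5, 22, 13, 20 and 29.5 Slc12a3 UMIs in libraries 1 to 5. Just inside the threshold were 65 cells with 2 Slc12a3 UMIs, which had 23.5 CPM of Pvalb, 169 of Calb1 and 23.5 of Trpm6. Of these 65, 48 were in library 3, and Kap, a proximal tubule gene, was at 8984 CPM in the 65 cells. Just outside it were 464 barcodes with 1 Slc12a3 UMI, with 11.9 CPM of Pvalb, 91.1 of Calb1 and 9.43 of Trpm6. The 387 cells with at least 10 Slc12a3 UMIs had 298, 856 and 134 CPM of these 3 genes and 1120 of Kap. They made up 163 of the 283 DCT cells of library 3 and 141 of the 162 of library 5. The part of this mix in the levels by library was not tested.

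The label was checked against Pvalb, Calb1 and Trpm6, which the rule did not use. Pvalb, encoding the calcium-binding protein parvalbumin (chr15:78191114-78206400, minus strand), was at 256 CPM (239 to 274) in DCT cells and had no UMI in either TAL or principal cells. Trpm6, the magnesium channel of the apical membrane (chr19:18749983-18892511, plus strand), was at 121 CPM in DCT, 7.15 in TAL and 4.92 in principal cells. Calb1, encoding calbindin (chr4:15881264-15908064, plus strand), was at 753 CPM in DCT and 3.44 in TAL cells, but at 686 in principal cells. Free RNA, measured in barcodes of 10 to 100 UMIs, held 10.5 CPM of Pvalb, 1.53 of Trpm6 and 37.3 of Calb1. Pvalb was found in 27.2% of DCT cells, Trpm6 in 38.95% and Calb1 in 40.7%, so the group as a whole carried the markers while most single cells had no UMI of any given one of them.

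These shares differed strongly between libraries, also when each cell was thinned to 1000 UMIs. Pvalb was then found in 17.2% of DCT cells of library 1, 9.62% of library 2, 1.77% of library 3, none of the 15 cells of library 4 and 44.4% of library 5. Calb1 was found in 20.7%, 15.4%, 7.42%, 13.3% and 56.2% of the cells of libraries 1 to 5. Trpm6 was found in 12.1%, 11.5%, 6.36%, 6.67% and 24.1%. Proximal tubule cells thinned in the same way, 600 in each library, had Pvalb in at most 0.167%, Calb1 in at most 0.5% and Trpm6 in at most 0.333%, at a median depth before thinning of 6445 UMIs against 4970 in DCT cells. The 3 markers were above this background in library 3 as well, where they were rarest among the libraries with at least 50 DCT cells. For Pvalb this rested on 5 of 283 cells. Proximal tubule cells had at most 1 Slc12a3 UMI by their rule, so barcodes with more DCT RNA were kept out of this background.

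The first comparison asked how DCT cells differ from TAL cells, the segment just before them. A gene was called where its CPM differed at least 2-fold, reached 50 in the higher class and had the same sign in each of the 4 libraries with at least 30 cells of both (1, 2, 3 and 5). With 1 pooled sample this is a rule of size, not a test. Genes of the rule were left out. Of 2967 genes, 92 were higher (3.10%) and 80 lower (2.70%) in DCT cells, and the median log2 ratio over the 2967 was -0.03. The 12 highest by ratio were Pvalb, Calb1, Emx1, Lhx1, Rhcg, Scnn1b, Pgam2, Slc8a1, Lhx1os, Ltc4s, Gata3 and Ptgfr, among which Rhcg encodes an ammonia transporter, Pgam2 a phosphoglycerate mutase, Ltc4s leukotriene C4 synthase and Ptgfr the prostaglandin F receptor. The 12 lowest were Tmem207, Irx1, Cldn16, Slc5a1, Eprn, Irx2, Egfl6, Slc34a2, Cldn10, Olfm4, Ramp3 and Car15. Among them Tmem207 was at 0.587 CPM in DCT and 51.4 in TAL cells, Slc5a1, the sodium-glucose cotransporter SGLT1, at 2.94 against 133, and Car15, a carbonic anhydrase gene, at 42.0 against 794. The Car15 level of DCT cells rested on few cells, as 1 cell held 33 of 35 UMIs in library 2 and 1 cell 37 of 57 in library 3.

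**Figure D2:**
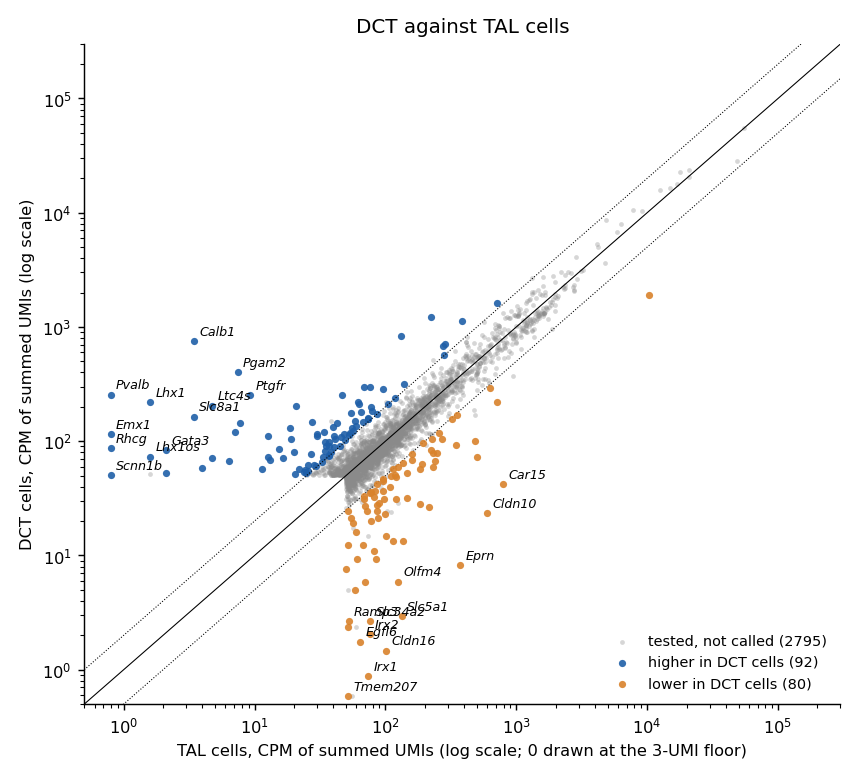
CPM of summed UMIs in DCT cells (y axis) against TAL cells (x axis), both on log scales, for the 2967 genes that reached 50 CPM in either class. A gene with no UMI is drawn at 3 UMIs, the solid line marks equal levels and the dotted lines a 2-fold difference. The 92 called higher include Pvalb, at 256 against 0 CPM, and Calb1, at 753 against 3.44 CPM, and the 80 called lower include Umod, at 1893 against 10287 CPM.

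Of 13 genes that carry sodium, chloride and potassium, 8 reached the level needed, and 1 was called, Kcnj10, the basolateral potassium channel, at 115 CPM in DCT and 29.9 in TAL cells (log2 ratio 1.94, 1.63 to 2.25). It was higher in DCT cells of every library, with 173 against 38.3 CPM in library 1, 152 against 48.7 in library 2, 76.2 against 16.4 in library 3, 74.3 against 19.4 in library 4 and 151 against 64.4 in library 5. Its partner Kcnj16 was at 255 against 253 CPM. The sodium pump subunit Atp1b1 had a log2 ratio of 0.29 and the pump regulator Fxyd2 one of 0.42, both under 2-fold. The median log2 ratio of the list was 0.47.

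The kinase pathway that controls NCC stood out at specific members. Klhl3, the adaptor that marks WNK kinases for degradation (chr13:58000228-58113592, minus strand), was at 202 CPM against 20.7 in TAL cells (log2 ratio 3.29, 2.95 to 3.64). Wnk1, whose kidney-specific form is a feature of the DCT, was at 1235 against 224 CPM (2.47, 2.36 to 2.57), and Wnk4 was at 212 against 105 (1.01, 0.83 to 1.19). The 3' counts do not tell the Wnk1 forms apart. The genes for SPAK (Stk39, 60.2 against 70.7 CPM), OSR1 (Oxsr1, 19.4 against 20.7), the scaffold Cab39 (68.1 against 60.7) and the ubiquitin ligase subunit Cul3 (82.0 against 69.9) were not called. Ppp1r1a, encoding protein phosphatase inhibitor-1, was at 769 against 776 CPM, and its relative Ppp1r1b was lower in DCT cells at 12.3 against 51.4. Thus of 13 genes, 10 of which could be called, 3 were called higher and 1 lower, with a list median of 0.17.

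In the magnesium list 8 of 14 genes reached the level needed, and 4 were called higher than in TAL cells and none lower. Besides Pvalb and Trpm6 these were Trpm7, the close relative of Trpm6, at 254 against 46.6 CPM (log2 ratio 2.44, 2.21 to 2.69), and Cnnm2, a basolateral magnesium transport protein, at 68.1 against 13.2 (2.36, 1.92 to 2.83). Egf, the hormone that raises TRPM6 activity, had 375 CPM in DCT and 942 in TAL cells but was not called, since DCT cells held more in library 3 (42.0 against 36.5 CPM) and less in libraries 1, 2, 4 and 5. In the calcium list 8 of 12 genes reached the level needed, and 5 were called higher and none lower, with a list median log2 ratio of 1.15. Slc8a1, the sodium-calcium exchanger, was at 164 against 3.44 CPM (5.57, 4.78 to 6.49). Kl, encoding klotho, was at 299 against 76.0 CPM, the vitamin D receptor gene Vdr at 117 against 54.0, and S100g, which encodes calbindin-D9k, at 1628 against 715, with 3 cells holding 77.1% of its UMIs in library 2 and 20.1% in library 3. Trpv5, the apical calcium channel, had 20.6 CPM in DCT and no UMI in TAL cells, a ratio of at least 25.9-fold against a floor of 3 UMIs over all TAL cells, but did not reach the level needed for a call.

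Of 8 genes of the epithelial sodium channel and potassium secretion, 6 reached the level needed and 3 were called higher than in TAL cells, and of 10 steroid receptor genes and targets 3 reached it and 1 was called. Scnn1a, a subunit of the epithelial sodium channel, was at 114 against 52.7 CPM, Scnn1b at 50.2 against 0.795, and Hsd11b2, the enzyme that shields the mineralocorticoid receptor from glucocorticoids, at 145 against 7.68, while Scnn1g reached only 12.9 CPM. A few cells held much of the Hsd11b2. In library 1 it was at 851 CPM and found in 23 of 58 cells, and 3 cells held 57.4% of its UMIs. In library 2 it was at 245 CPM and found in 14 of 52 cells, and 3 cells held 73.1%. Without the 3 cells with the most UMIs it was at 508 CPM in library 1 and 104 in library 2. The mineralocorticoid receptor gene Nr3c2 was at 20.6 CPM against 9.01, below the level needed. Principal cell markers summed to 958 CPM in DCT cells of library 1, 245 in library 2, 18.9 in library 3, 67.5 in library 4 and 6.64 in library 5. Hsd11b2 is 1 of the 5 genes of that list. Cells with at least 2 UMIs of endothelial, fibroblast and pericyte, podocyte, leukocyte or intercalated cell markers are called cells with markers of another class. Principal cell, TAL and proximal tubule markers were not used for this, so no cell was taken out by Hsd11b2. Without these cells Hsd11b2 was at 131, 51.8, 4.34, 11.8 and 2.90 CPM in libraries 1 to 5.

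Several transcription factors differed between the segments. Emx1 was at 115 CPM in DCT cells and 0.795 in TAL cells (log2 ratio 7.18, 5.62 to 9.46), with 147 CPM in library 1, 139 in library 2, 42.7 in library 3, 47.3 in library 4 and 255 in library 5, while no TAL library exceeded 1.28. Lhx1 was at 219 against 1.59 CPM (7.11, 5.98 to 8.56), Gata3 at 83.1 against 2.12 (5.29, 4.30 to 6.52) and Sall3 at 58.7 against 3.97 (3.89, 3.13 to 4.75). In the other direction Irx1 was at 0.881 against 73.4 CPM, Irx2 at 2.06 against 75.8 and Pax8 at 49.3 against 111. Tfap2b was at 206 against 248 and Tfcp2l1 at 313 against 296. Of 26 factors, 15 reached the level needed, 4 were called higher and 3 lower, and the list median was 0.10. Claudins, which set the ion selectivity of the paracellular path, also went both ways. Cldn8 (149.8 against 59.1 CPM) and Cldn4 (145 against 42.6) were higher in DCT cells, and the TAL claudins Cldn10 (23.5 against 596), Cldn16 (1.47 against 101) and Cldn19 (26.4 against 214) were lower.

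Umod, the gene of uromodulin, is a TAL product that some DCT cells are known to share. It was at 1893 CPM in DCT and 10287 in TAL cells and was called lower in DCT cells (log2 ratio -2.44, -2.48 to -2.40). After thinning, Umod was found in 56.9% of DCT cells of library 1, 59.6% of library 2, 61.1% of library 3, 46.7% of library 4 and 49.4% of library 5, against 0.667 to 5.33% of proximal tubule cells. Its level lay between 1438 and 2199 CPM in the 5 libraries. It held 243 CPM of free RNA, and the share of DCT UMIs that free RNA could make up, from proximal tubule genes, was at most 3.65 to 20.4% by library. All 6 genes of the TAL list, Umod among them, were called lower in DCT cells, with a sum of 1958 against 11385 CPM. Cldn16 and Tmem207 were at 1.47 and 0.587 CPM in the same DCT cells, while Cldn10 and Cldn19 stood higher, at the levels given above. What part of the Umod level came from TAL RNA was not tested.

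The second comparison set DCT cells against principal cells, the segment beyond. Only library 3 had 30 cells of both classes, so the same sign there decided the calls. Of 3248 genes, 161 were higher (4.96%) and 279 lower (8.59%) in DCT cells, with a median log2 ratio of -0.20. These ratios pool all libraries, and from library 3 alone 100 of the 161 and 208 of the 279 were still called. Of 14 magnesium genes 8 reached the level needed, and 6 were called higher and none lower. Egf was at 375 against 0.614 CPM, Trpm6 at 121 against 4.92 and Cnnm2 at 68.1 against 11.1. Of 6 early DCT genes 5 reached the level needed and all 5 were called higher. Late DCT genes were called higher in none and lower in 6 of 8, among them Scnn1b (50.2 against 318 CPM), Scnn1g (12.9 against 216), Trpv5 (20.6 against 133) and S100g (1628 against 6260.0), whereas Calb1 was at 753 against 686.

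The kinase list again gave Wnk1 (1235 against 145 CPM), Wnk4 (212 against 73.7) and Klhl3 (202 against 14.1) as higher, now with Ppp1r1a, at 769 against 4.92 CPM (log2 ratio 7.29, 6.31 to 8.50). Sgk1, the aldosterone-induced kinase, and Nedd4l, the ligase it restrains, were lower at 56.1 against 142 and 54.0 against 124 CPM, where Sgk1 had this sign in 4 of 5 libraries and Nedd4l in 5. Sall3 and Lhx1 were the 2 of 26 transcription factors called higher, and 7 were called lower, with Gata3 at 83.1 against 262 and Gata2 at 4.11 against 184 CPM. The 10 highest by ratio were Egf, Ppp1r1a, Pvalb, Abca13, Sfrp1, Il1f6, Uroc1, Cwh43, Ccl5 and Trpm6, and the 10 lowest were Sprr2f, Fxyd4, Grp, Apela, Mcoln3, Aqp6, Kcne1, Aqp3, Kif26b and Muc20. When all 5 libraries had to share the sign, which 10 cells of both classes allowed and which was chosen after seeing the data, 5 of these 20 were not called, namely Il1f6, Ccl5, Sprr2f, Grp and Aqp6. Of the list genes, Sgk1, Slc8a1 and Pax2 were among those not called in this way. Foxi1 and Aqp6, which are known from intercalated cells, were at 86.6 and 131 CPM in the principal cells, so that group held intercalated cell genes as well.

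**Figure D3:**
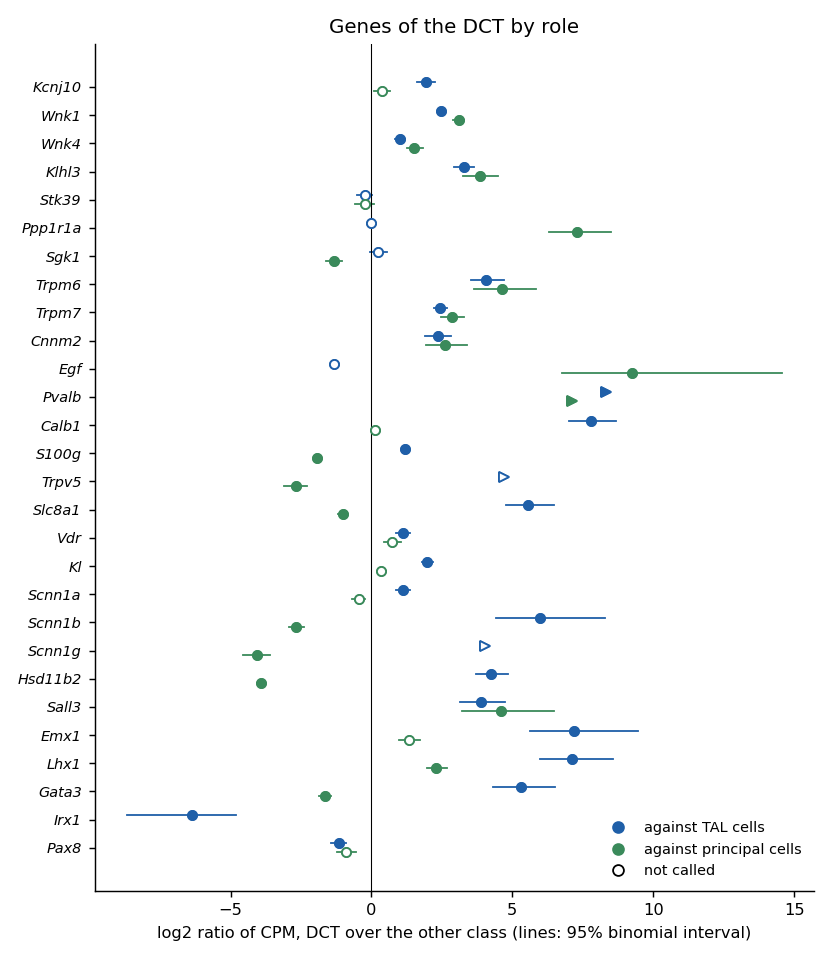
Log2 ratio of CPM in DCT cells over TAL cells (blue) and over principal cells (green) for 28 genes ordered by role, with 95% binomial intervals. Filled symbols were called, open symbols were not, and triangles are lower bounds against a class with no UMI. Klhl3, Wnk1, Trpm6, Trpm7, Cnnm2 and Sall3 were higher than in both other classes, while Scnn1b, Gata3 and Hsd11b2 were above TAL and below principal cells, as was Slc8a1, which had this sign against principal cells in 4 of 5 libraries.

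The third description followed DCT cells across libraries 1, 2, 3 and 5. A gene was called where the highest library was at least 4-fold above the lowest, with at least 20 UMIs and 50 CPM in the highest and with Poisson intervals that did not overlap. Of 3753 genes 391 were called (10.4%), 221 of them lowest in library 5 (5.89%), 106 lowest in library 3 (2.82%) and 100 highest in library 5 (2.66%). TAL cells gave 390 of 3478 (11.2%), of which 191 were lowest in library 5 (5.49%). Without library 5, 150 of 3602 genes were called in DCT cells. In sparse data a few cells can carry a gene. When the 3 cells with the most UMIs of a gene were left out of each library, a check added after seeing the data, 363 of 2978 genes were called and 271 of the 391 were among them. After thinning 171 genes were called, with 119 of the 391 among them. The count was 252 at a mitochondrial limit of 10% and 190 without cells with markers of another class (158 and 169 of the 391). In both settings libraries 1 and 2 held fewer than the 50 DCT cells needed, so only libraries 3 and 5 were compared. The count rose to 576 with free RNA subtracted and to 570 at a minimum of 10 CPM, with 370 and 391 of the 391 among them.

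Of 6 early DCT genes 5 reached the levels needed and all 5 were called, each of them highest in library 5. Pvalb was at 142 CPM in library 1, 120.4 in library 2, 15.8 in library 3, 13.5 in library 4 and 970.2 in library 5, which was 61.2-fold above library 3. Egf (chr3:129677565-129755316, minus strand) was at 268, 407, 42.0, 101 and 1196 CPM in libraries 1 to 5. In TAL cells Egf had the same ends and a wider range, with 36.5 CPM in library 3 and 5329 in library 5. Summed over the early DCT genes, the level ran from 298 CPM in library 3 to 3382 in library 5 in DCT cells and from 175 to 5929 between the same libraries in TAL cells. In TAL cells of library 5 Egf alone held 5329 of the 5929 CPM, and Pvalb had no UMI in TAL cells, so this sum does not describe the whole list there. Trpm6 was at 61.6, 105, 73.1, 6.75 and 291 CPM, so that it was lowest in library 1 and not in library 3 among the 4 libraries compared. Cnnm2 (37.2 to 162 CPM) and Slc16a7 (109 to 747 CPM) also stood lowest in library 3 and highest in library 5. In libraries 1 and 2 few cells carried Pvalb, since 3 cells held 48.3% and 77.4% of its UMIs, against 11.9% in library 5.

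Several calcium and kinase genes were also highest in library 5 and lowest in library 3. Calb1 was at 211 CPM in library 1, 382 in library 2, 119 in library 3, 189 in library 4 and 2766 in library 5, a 23.2-fold range, and in TAL cells it did not exceed 27.1 CPM. Klhl3 was at 209, 220.4, 45.7, 81.0 and 549 CPM, or 12-fold, and Wnk1 at 1354, 1261, 518, 412 and 2876, or 5.55-fold. Kl ranged from 120.1 CPM in library 3 to 839 in library 5 and Slc8a1 from 62.2 to 389. TAL cells had the same ends for Wnk1, at 99.7 CPM in library 3 and 789 in library 5, and for Klhl3, at 9.25 and 61.0. S100g went another way, with 678, 1063, 1911, 1533 and 1891 CPM, and was not called. Its levels rested on few cells, as 3 cells held 71.3%, 77.1%, 20.1%, 98.7% and 54.0% of its UMIs in libraries 1 to 5, and without such cells it was called, highest in library 3 and lowest in library 1. Slc12a3, a gene of the rule, ranged 2.58-fold, also from library 3 to library 5.

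The transcription factors Lhx1, Emx1, Sall3 and Prox1 were likewise lowest in library 3 and highest in library 5, with Lhx1 at 77.4 and 576 CPM and Emx1 at 42.7 and 255, and Prox1 was not called without the 3 cells with the most UMIs. Bhlhe40 (322 CPM in library 1, 30.5 in library 5) and Pax8 (68.9 CPM in library 3, 14.6 in library 5) were lowest in library 5. Scnn1b had a different order, at 185 CPM in library 1, 68.2 in library 2, 26.8 in library 3, 47.3 in library 4 and 15.9 in library 5, and without cells with markers of another class it was at 65.7, 19.4, 24.3, 47.3 and 15.9 CPM, with 7 UMIs in library 1 and 3 in library 2. Cldn4 was also highest in library 1 and lowest in library 5, at 334, 307, 118, 135 and 3.98 CPM. Without library 5, the calls left in these lists were Klhl3 in the kinase list, Egf and Pvalb in the magnesium and early lists, Scnn1b, Kcnj1 and Hsd11b2 in the sodium channel list and Elf3 among the factors, and no gene of the calcium list was called.

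**Figure D4:**
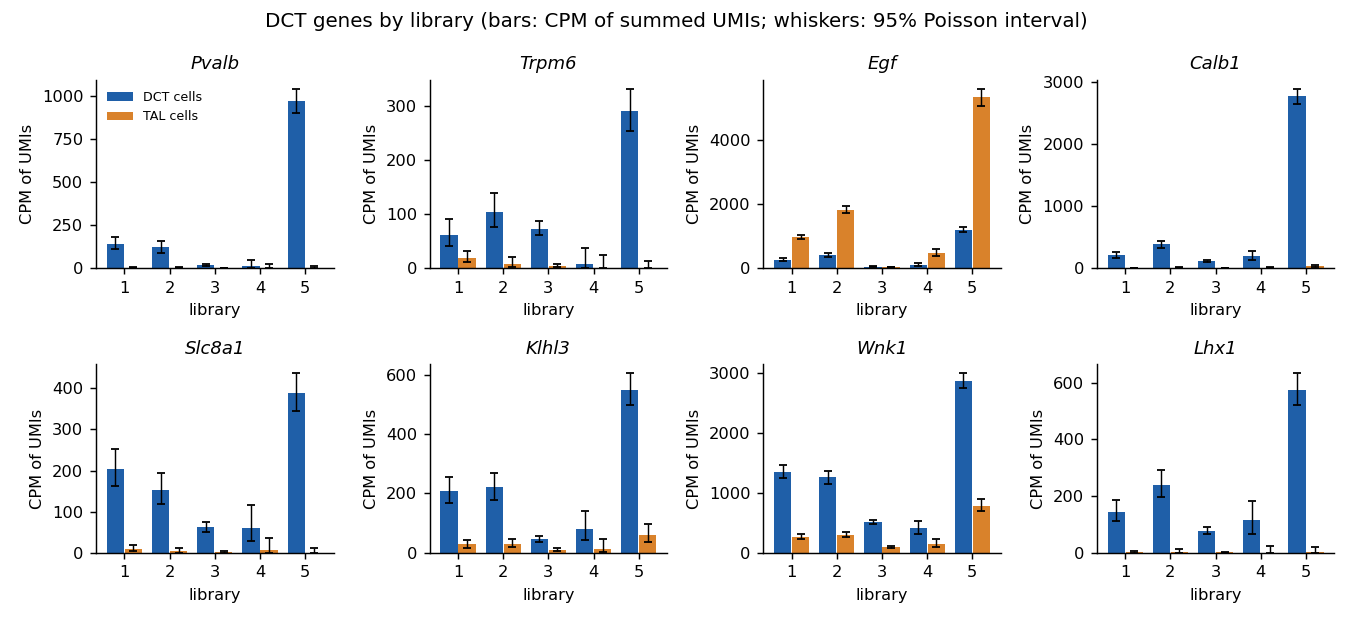
CPM of summed UMIs of 8 genes in DCT cells (blue) and TAL cells (orange) of libraries 1 to 5, with 95% Poisson intervals and axes from 0. In DCT cells all 8 were highest in library 5, as Calb1 at 2766 CPM and Klhl3 at 549 CPM, and library 4 rests on 15 DCT and 17 TAL cells.

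Genes known from injured tubules gave the opposite picture. Of 20 genes, 16 reached the levels needed and 14 were called, and each of the 14 was lowest in library 5. Lcn2, encoding the secreted lipocalin NGAL (chr2:32384633-32388252, minus strand), was at 735 CPM in library 1, 2936 in library 2, 2227 in library 3, 2417 in library 4 and 1.33 in library 5, where a single UMI was counted in 162 cells. After thinning it was found in 17.2%, 23.1%, 55.1%, 46.7% and none of the DCT cells of libraries 1 to 5, against 0 to 4.33% of proximal tubule cells. In library 3 the gene was carried by 203 of 283 cells, and 3 cells held 13.9% of its UMIs, whereas in library 2 it was carried by 16 of 52 cells and 3 cells held 78.3%. The high CPM of library 2 thus came from few cells, and the high CPM of library 3 from most.

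Spp1, encoding osteopontin, was at 9908 CPM in library 1, 16150.1 in library 2, 48447 in library 3, 34708 in library 4 and 1190.5 in library 5. Clu, encoding clusterin, was at 6235, 6207, 12996, 11871 and 905 CPM. Both were lowest in library 5, and both were highest in library 3. Keratins Krt8 (155 to 818 CPM) and Krt18 (46.5 to 495), the progenitor factor gene Sox9 (38.5 to 273), Sox4 (88.9 to 416), the TWEAK receptor gene Tnfrsf12a (26.5 to 396) and Tmsb10 (57.1 to 306) had their lowest values in library 5 as well, these ranges being over libraries 1, 2, 3 and 5. S100a6 was at 187, 1281, 302, 331 and 1.33 CPM. Havcr1, the gene of KIM-1 and a proximal tubule injury marker, stayed at 26.8 CPM or less in every library. Without library 5, 4 of the 20 were called, namely Spp1, Krt19, Tnfrsf12a and S100a6, and without the 3 cells with the most UMIs 13 were called, all lowest in library 5.

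TAL cells of the same libraries were likewise lowest in library 5 for Lcn2 and Spp1. Lcn2 was at 947, 2083, 2505, 1800.2 and 0 CPM and Spp1 at 20979.9, 34940.0, 70831, 44328 and 3195 CPM in TAL cells of libraries 1 to 5. Between the classes, Sox9 was called higher in DCT cells (131 against 55.4 CPM, log2 ratio 1.24, 1.00 to 1.48), and Anxa2 (72.6 against 503) and Nupr1 (67.3 against 239.7) were called lower. Clu was higher in DCT cells of every library but below 2-fold over all cells (8556 against 4886 CPM). In library 5 it was at 905 CPM in DCT and 50.8 in TAL cells. Lcn2 did not reach 2-fold either (1649 against 1889.9 CPM).

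**Figure D5:**
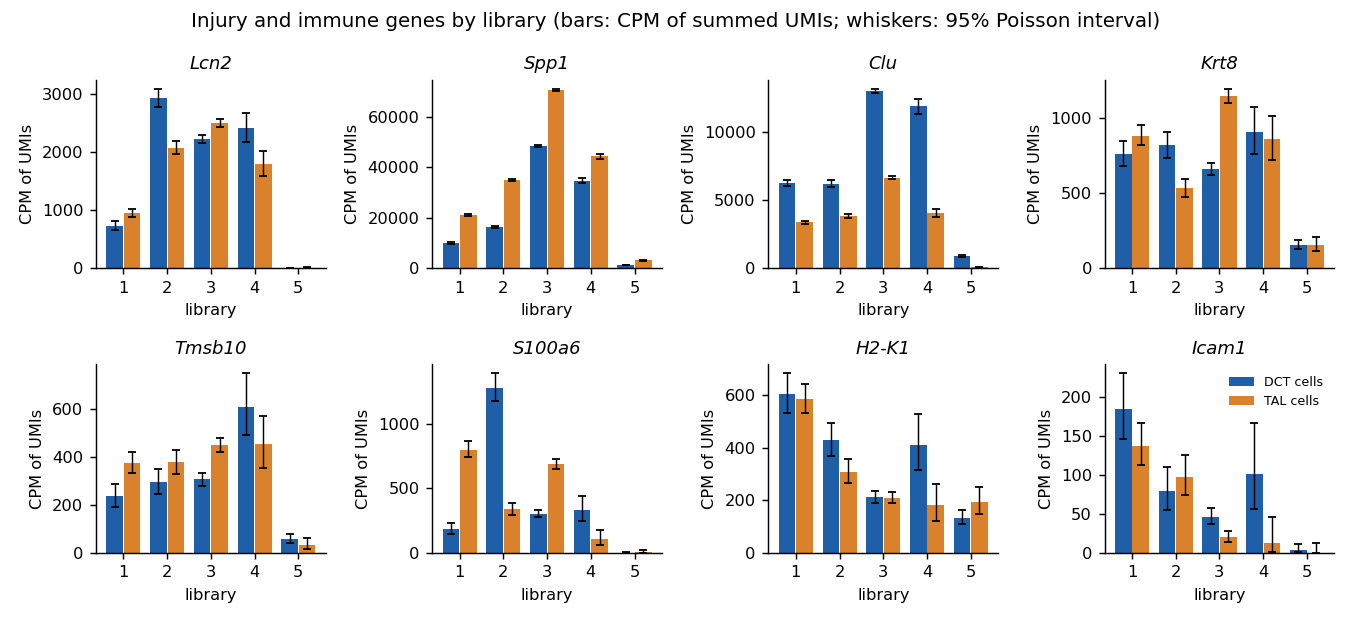
CPM of summed UMIs of 8 genes of tubular injury and immune signalling in DCT cells (blue) and TAL cells (orange) of libraries 1 to 5, with 95% Poisson intervals and axes from 0. Library 5 was lowest for all 8 genes in DCT cells, with Lcn2 at 1.33 CPM against 735 to 2936 in the others.

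Immune genes followed the same order at the low end. Of 12 genes of the interferon response and antigen presentation, Cd74 of the class II path among them, 7 reached the levels needed and all 7 were called. Each was lowest in library 5, such as H2-K1 at 605, 429, 213, 412 and 134 CPM in libraries 1 to 5, B2m at 183 CPM in library 1 against 41.1 in library 5, and Irf1 at 119 against 17.3. Without the 3 cells with the most UMIs 4 were called (Irf1, H2-K1, H2-D1 and Cd74), so that B2m, Isg15 and Psmb8 lost their call, B2m at 149 CPM in library 1 against 39.8 in library 5 and Psmb8 at 46.6 CPM in library 2, under the minimum of 50. Without library 5 only Irf1 and Cd74 were called. Of 15 genes for signals to and from immune cells 7 reached the levels needed and 6 were called. All of the 6 but C3 were lowest in library 5. C3 had no UMI in library 5 and 1 in library 1, which counted as its lowest because 0 was set to 3 UMIs. Without the 3 cells with the most UMIs, Cxcl10, Cxcl16 and Icam1 were called, and without library 5 only C3 was. Cxcl10 was at 261, 270.4, 249, 513 and 19.9 CPM, Cxcl16 at 80.6, 105, 102, 196 and 3.98, and the adhesion molecule gene Icam1 at 185, 79.5, 46.3, 101 and 3.98. Cd74 and H2-Eb1, genes of class II presentation, rested on few cells, as 3 cells held 84.2% of the Cd74 UMIs in library 1 and 90.6% in library 2. Clec4e, which encodes Mincle, had 2.06 CPM in DCT cells, Tnf had 3.82 and Tnfrsf1a, a TNF receptor gene, 46.4.

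Leukocyte genes were present beside these. Mononuclear phagocyte markers summed to 296, 334, 111, 33.8 and 7.96 CPM in DCT cells of libraries 1 to 5 and neutrophil markers to 0, 22.7, 69.5, 6.75 and 0. Leaving out cells with at least 2 UMIs of markers of another class kept 446 of 570 DCT cells. By library it kept 31 of 58, 33 of 52, 218 of 283, 9 of 15 and 155 of 162 cells in libraries 1 to 5. The limit was on UMIs before thinning, so cells of high depth could pass it more easily and be left out. The part of depth in the values below was not tested. Cd74 was then at 84.5, 51.8, 23.4, 47.3 and 2.90 CPM. Lcn2 was then at 216, 1320, 2398, 2675 and 1.45 CPM, and Cxcl10 at 272, 414, 286, 627 and 21.7, so both were still lowest in library 5. Pvalb was at 300.5, 90.6, 14.8, 23.7 and 971 CPM and Calb1 at 366, 725, 96.3, 118 and 2794 in these cells, so library 5 stayed highest and library 3 lowest. In library 1, other injury and immune genes moved as well, with Spp1 at 4244 CPM in place of 9908, Clu at 2291 in place of 6235, S100a6 at 28.2 in place of 187 and Icam1 at 28.2 in place of 185. Both S100a6 and Icam1 then rested on 3 UMIs there. Egf was at 535, 641, 34.7, 142 and 1212 CPM in the cells kept, so its ends were also libraries 3 and 5.

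The 12 genes with the largest fold across libraries were Lcn2, S100a6, Hsd11b2, Cxcl5, Cd74, Tpm1, C3, Il1f6, F3, Mmp7, H2-Eb1 and Capg. Without the 3 cells with the most UMIs in each library, Cxcl5, C3, Mmp7 and H2-Eb1 were no longer called. Tpm1, encoding a tropomyosin, was at 97.2, 177, 137, 87.8 and 1.33 CPM, F3, encoding tissue factor, at 45.0, 38.6, 129, 67.5 and 1.33, and Il1f6, encoding interleukin-36 alpha, at 35.6, 398, 158, 452 and 0. All 3 were lowest in library 5 and were still called without the 3 cells with the most UMIs. Without cells with markers of another class, Tpm1 and Il1f6 had no UMI in library 1, where F3 had 1 UMI, so library 5 was then not alone at the low end.

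Energy genes differed less. Of 92 nuclear genes of oxidative phosphorylation 1 was called, Cox7a1, and 89 had a UMI in DCT cells. Over libraries 1, 2, 3 and 5, 81 were highest in library 5 and 63 lowest in library 3. The share of all genes with this order was not counted, so these counts cannot be read as particular to the list. Their sum was 58528 CPM in library 1, 67064 in library 2, 48382 in library 3, 58740.1 in library 4 and 103134 in library 5, and in TAL cells 51343, 59098, 39535, 53717 and 76772. Thus DCT cells held more than TAL cells in each library, and the order of the libraries at both ends was the same in the 2 classes. Proximal tubule markers summed to 2843, 1938, 2556, 918 and 5784 CPM in DCT cells of libraries 1 to 5, also highest in library 5, where the upper bound for free RNA was 20.4%, and their part in the order of the libraries was not tested. The median log2 ratio of the list against TAL cells was 0.34, and 1 gene was called there, Ndufa1. Spp1 alone took 48447 CPM in library 3 and 1190.5 in library 5, and since CPM are shares of 1 total, a change in a share and in the amount per cell cannot be told apart. None of 17 genes of glycolysis and fatty acid oxidation was called. Of 12 cell cycle genes only Pcna reached the level needed, and Mki67 was found in 0.702% of DCT cells.

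Stress genes were mixed. Of 14 immediate early genes, which tissue dissociation is known to induce, 1 was called, Klf6, with 1451 CPM in library 1 and 328 in library 5, while Fos ranged from 1721 to 3224 CPM and Jun from 1012 to 2730.0. Against TAL cells only Nr4a1 was called in this list, at 122 against 56.2 CPM. Hspa1a was at 363, 170.4, 143, 216 and 693 CPM in libraries 1 to 5 and Hspb1 at 23.7, 134, 249, 385 and 51.8. Mt2, a metallothionein gene, was lowest in library 1 (292 CPM) and highest in library 3 (1308 CPM). Mt1 and Mt2 were called higher in DCT than in principal cells, at 3649.7 against 1154 and 895 against 229 CPM.

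Cells were also compared with each other by Pvalb. After thinning, 478 DCT cells had no Pvalb UMI, 70 had 1 or 2 and 22 had at least 3, of which 19 were in library 5, so no library had 30 cells on both sides and no call was possible. Within library 5 a split chosen after seeing the data set 72 cells with Pvalb against 90 without. Of 2893 genes 56 were higher (1.94%) and 69 lower (2.39%), counts that depended on the setting, with 582 and 498 after thinning and 323 and 404 at a mitochondrial limit of 10%. S100g was at 520 CPM in cells with Pvalb and 3023 in cells without, and Klk1, encoding tissue kallikrein, at 1403 against 3874 (log2 ratio -1.47, -1.62 to -1.32). S100g was found in 18.1% and 20% of the thinned cells and Klk1 in 51.4% and 52.2%, with overlapping intervals for each. For S100g, 3 cells held 54.0% of the UMIs in library 5. Umod was called higher in cells with Pvalb, at 2559.6 against 998 CPM. It was found in 59.7% (47.5 to 71.1) and 41.1% (30.8 to 52.0) of the thinned cells, with intervals that also overlapped. Trpm6 was at 370 against 225 CPM, under 2-fold, and Calb1 at 2779.7 against 2754 CPM. Calb1 was found in 66.7% (54.6 to 77.3) of cells with Pvalb and 47.8% (37.1 to 58.6) of those without, so many cells had both. Proximal tubule markers summed to 3493 and 7675 CPM in the 2 sets, the median mitochondrial share was 11.96% and 14.7%, and their part in the calls was not tested.

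A split of library 5 by Calb1 set 91 cells with a UMI after thinning against 71 without. Of 2904 genes 62 were higher (2.13%) and 163 lower (5.61%). Slc8a1 was at 562 against 132 CPM, Kl at 1089 against 468, Klk1 at 3641 against 1446, Atp2b4, encoding a plasma membrane calcium pump, at 104 against 46.1, and S100g, whose UMIs in library 5 lay to 54.0% in 3 cells, at 2850 against 471, all called higher. Outside the calcium list, Clu (1147 against 547 CPM) and Hspb1 (75.6 against 16.5) were also higher. Atf3 (511 against 1047 CPM), Txnrd1 (35.6 against 112), Nqo1 (31.1 against 75.8), Sgk1 (28.9 against 72.5) and Elf3 (37.8 against 82.3) were the list genes called lower. Apart from Atf3 these had few UMIs, with 16 against 34 for Txnrd1, 14 against 23 for Nqo1, 13 against 22 for Sgk1 and 17 against 25 for Elf3. The log2 ratio of Sgk1 had an interval of -2.44 to -0.27 and that of Elf3 one of -2.10 to -0.18. Egf was at 1187 against 1209 CPM. Proximal tubule markers summed to 2901 and 10056 CPM and the median mitochondrial share was 16.5% and 10.7%, and their part in the calls was not tested. In library 3, 156 cells with Lcn2 and 127 without were compared in the same way, and of 2827 genes 23 were higher (0.814%) and 28 lower (0.990%). Wnk1 (359 against 749 CPM), Calb1 (80.4 against 176), Slc8a1 (33.0 against 104), Vdr (48.4 against 97.0) and Klk1 (1533 against 3182) were lower in cells with Lcn2, and Hmox1, encoding heme oxygenase 1, was higher (74.2 against 26.9). The interferon genes Ifit1 (18.5 against 79.1 CPM) and Isg15 (25.8 against 52.2) were lower as well, on 18 against 53 and 25 against 35 UMIs. Cells with Lcn2 had a median depth of 6185.5 UMIs against 4845, and Trpm6 was at 76.2 against 68.6 CPM. Both of these splits were chosen after seeing the data. In a split within 1 library the same sign is met by design. A call there thus rests on the 2-fold difference and the minimum of 50 CPM.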

How the data were processed

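Kidneys were dissociated enzymatically and libraries made with the 10x Genomics 3' kit V3.1, per the labels. The authors aligned reads to mm10 (Ensembl GRCm38.93) with Cell Ranger 6.0, per the labels and the study's methods, and deposited 1 merged, unfiltered matrix of UMI counts with 32285 genes and 10474594 barcodes in 5 libraries; the study names 15 matrices, and how these were joined is not given in the sources used here. Members and gene lists were chosen with earlier results of these data known. UMIs were summed by cell class and library and given as CPM with exact Poisson intervals, ratios with conditional binomial intervals and shares with Clopper-Pearson intervals at 95% (Python 3.11.15, scipy 1.17.1). Calls are by size, not tests, and the rule genes were left out of them. A library at 0 was set to 3 UMIs and its fold given as a bound. No doublet caller was run. For shares, cells were thinned to 1000 UMIs. Of genes called, the 12 highest and lowest by ratio against TAL cells, 10 against principal cells and 12 across libraries were named, with list members (the Pvalb split over all libraries called none), and models with Gm, Rik or mt- symbols were counted but not named. On simulated counts, 100.0% of 200 genes changed 4-fold between DCT and TAL cells, and 98.0% of 200 changed 6-fold across libraries, were recovered. These were Poisson draws without other spread between cells or libraries. The changed genes had at least 100 CPM in TAL cells, or at least 200 CPM in DCT cells for the libraries. Across libraries every change was a fall in library 5. Changes near the 50 CPM minimum, other orders of the libraries and genes carried by a few cells were not simulated. Coordinates are from GENCODE vM21 (GRCm38). Alternatives were the filters, the Slc12a3 minimum, the CPM minimum, thinning, subtraction of free RNA, removal of cells with markers of other classes or high depth, equal weight for each library, and leaving out each library. Some members of the lists are not reported here by name.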

Additional observations from a re-analysis of the deposited data

Results flagged for a closer look

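Barcodes that met the DCT rule apart from the mitochondrial limit or the UMI minimum entered no comparison above, and they held DCT markers above the level of free RNA, which was 37.3 CPM for Calb1, 1.53 for Trpm6 and 10.5 for Pvalb. The 607 barcodes with over 25% of UMIs on mitochondrial genes had 1886 CPM of Calb1, 130.1 of Trpm6 and 418 of Pvalb, beside 753, 121 and 256 CPM in the DCT cells, and their median was 3854 UMIs with 37.8% mitochondrial. Of these 607, 283 were in library 5 and 177 in library 3, whereas 162 and 283 of the 570 DCT cells were, so the CPM of the pooled sets rest on different mixes of libraries. Lcn2 was at 429 CPM in the 607 barcodes, against 1649 in the DCT cells. These totals include mitochondrial UMIs, whose share differs between the sets by the limit itself. Over non-mitochondrial UMIs alone, the 607 barcodes had 3079 CPM of Calb1, 212 of Trpm6, 681 of Pvalb and 700 of Lcn2. The DCT cells had 870, 140, 296 and 1904 CPM on that scale. The 124 barcodes with at least 500 but under 1000 UMIs had 817 CPM of Calb1, 92.1 of Trpm6 and 173 of Pvalb, and Kap, a proximal tubule gene, was at 12202 CPM in them against 2034 in the DCT cells.

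Of 938 filtered barcodes with at least 2 Slc12a3 UMIs, 323 were left out by the limit on Lrp2. The 306 of this kind with at least 2 Lrp2 UMIs had a median of 8754.5 UMIs, 51.8 CPM of Pvalb, 37.0 of Trpm6 and 21247 of Kap.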

How the results depend on the processing

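No paired analysis was possible because all cells form 1 sample and the libraries carry no replicate number. Requiring at most 10% mitochondrial UMIs gave 189 DCT cells, 10 cells with 3 or more Pvalb UMIs, 252 genes called across libraries (158 of the 391) and 323 higher and 404 lower in the Pvalb split of library 5. Leaving out cells with markers of other classes gave 190 genes called across libraries (169 of the 391). Here and at the 10% limit, libraries 1 and 2 fell under 50 DCT cells, so the calls across libraries compared libraries 3 and 5 alone. Thinning gave 171 called across libraries (119 of the 391), 276 higher and 549 lower against principal cells and 582 and 498 in the Pvalb split of library 5. A minimum of 10 CPM gave 265 higher and 251 lower against TAL cells, 555 and 754 against principal cells, and 751 and 840 in the Pvalb split. It gave 570 genes called across libraries (all of the 391), and subtraction of free RNA gave 576 (370 of the 391). Leaving out 1 library at a time gave 287 to 555 DCT cells, with the fewest without library 3, 150 to 391 genes called across libraries and 3 to 22 cells with 3 or more Pvalb UMIs, both fewest without library 5. Without the 3 cells with the most UMIs of each gene, 85 of the 92 higher and 62 of the 80 lower genes against TAL cells were still called. With equal weight for each library compared, 80 of the 92 and 71 of the 80 were still called. The log2 ratio of S100a6 against principal cells was -1.17 and became 0.11 without cells above the 95th percentile of UMIs, and the cause was not tested. No other ratio of a called gene that was followed reversed against TAL or principal cells or in the Pvalb split of library 5. The fold across libraries is highest over lowest, so it could not reverse. Over all settings, 158 of 700 ratios against TAL and 256 of 830 against principal cells left their main interval. Across libraries, 192 of 830 folds moved by more than 1 log2 unit. The comparison with principal cells without library 3, and the Pvalb split of library 5 with free RNA subtracted, gave no value. Library 4 held only 15 DCT cells, and its values rest on these.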
